A study of Ovis aries with 60 samples.

Results

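The clusters described here are groups of CpG cytosines that lay close together in sheep sperm DNA. A cytosine was taken as dense when at least 10 other listed CG cytosines, on either strand, lay within 500 bp of it on both sides together in the F0 rams. A cytosine was listed when all samples of its generation covered it with at least 10 reads, so density here counts listed cytosines and not every CpG of the genome. On the autosomes (chr1 to chr26, Oar_rambouillet_v1.0) 3861 of 300610 listed CG cytosines were dense (1.28%), and the other 296749 served for comparison in F0. In F1 and F2 all listed autosomal cytosines that were not dense served, also those not listed in F0. The rule used positions only and no methylation level. Of the dense cytosines, 3418 (88.5%) were also listed in F1 and 1692 (43.8%) in F2, against 73.7% and 24.3% of the other autosomal cytosines of F0.

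The study asked whether methionine given to Polypay rams changed sperm methylation in them and in later generations. In F0, male twins were split between a control diet and the same diet with encapsulated rumen-protected methionine (RPM Smartamine) from weaning until puberty. Of these animals, 5 methionine rams and their 5 control twins sired F1 and were sequenced. F1 was measured as 5 pools of progeny of methionine sires and 5 of control sires, so a pool averages several rams. F2 was measured as 10 and 10 individual grand-progeny rams, 2 for each of the 10 F0 sires, and all F1 and F2 animals ate the control diet. The ewes that bore F1 and F2 were untreated. Each F0 sire was followed by 1 F1 ram into F2, so both F2 rams of a sire number share their father and are not independent animals.

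In mammals DNA methylation sits mainly on cytosines followed by guanine, and most such cytosines are methylated in sperm. Stretches with many CpGs form the main exception: CpG islands at gene starts are usually free of methylation, whereas dense CpGs inside repeats and satellite arrays can be high, low or in between. Neighbouring CpGs tend to share their state, because the enzymes that write and copy the mark act along the DNA. Whether a cluster here is an island or a repeat was not analysed, since no sequence of this genome build was used.

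The dense cytosines were not spread evenly. They had a median of 14 listed neighbours, against a median of 2 for the others. Chained at gaps of at most 500 bp, they fell into 298 runs with a median span of 680 bp and a median of 11 dense cytosines. All 26 autosomes held some, with 22.4% on chr1 and 9.53% on chr15, where 13.1% and 3.74% of the other cytosines lay. The 5 largest runs alone held 894 dense cytosines (23.2%), and 820 and 833 of those were still listed in F1 and F2, so these runs made up 49.2% of the dense cytosines in F2.

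Those 5 runs were chr1:3016821-3019160 with 274 dense cytosines, chr1:128500889-128510840 with 231, chr15:29721-33014 with 199, chr15:27742-29074 with 115 and chr19:52045747-52050602 with 75. Both chr15 runs lie next to each other near the start of the chromosome sequence. Reads piled up on some of these runs. The mean coverage per cytosine and ram in F0 was 344 reads in chr1:3016821-3019160 and 66.4, 58.1, 35.5 and 87.7 reads in the others, in the order given. Among all dense cytosines the median coverage was 29.8 reads in F0 and 44.0 in F2, against 22.7 and 24.5 for the others. More than 100 reads per ram covered 354 dense (9.17%) and 305 other cytosines (0.103%) in F0. The 5 largest runs took 0.855% to 2.86% of the autosomal CG reads of an F0 ram and 4.62% to 19.01% of those of an F2 ram.

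Some rams stood apart from the rest of their generation in the mean level over all dense cytosines. In F2 the mean level of dense cytosines was 65.9% in ramF2_480.3T, 64.1% in ramF2_320.5T, 67.1% in ramF2_400.24C and 66.3% in ramF2_409.24C. It was 56.5% in ramF2_426.11T, 56.2% in ramF2_449.4C and 48.5% to 53.3% in the remaining rams. The 4 highest are 2 rams of each diet group. This order rested in part on the 5 largest runs. Over the dense cytosines outside them the 4 rams were at 66.8%, 68.3%, 69.6% and 66.7%, in the order given. There ramF2_449.4C at 66.9% and ramF2_340.11T at 66.8% lay among them, with the remaining rams at 62.8% to 66.1%. In F0, ram_23T was highest at 60.5%, with the others at 53.3% to 58.8%, and its progeny pool, pool_23T, was the highest pool of F1 at 60.1%. Outside the 5 largest runs neither was highest. There ram_24C (62.6%) was above ram_23T (62.3%), and pool_3T, pool_24C and pool_10C (63.1%, 63.3% and 63.5%) were above pool_23T (62.5%). The F2 rams descended from ram_23T were low, at 50.4% and 49.7%. In the line of sire 24 all samples were high: ram_24C was the next highest F0 ram at 58.8%, pool_24C the next highest pool at 59.04%, and both its F2 rams, ramF2_400.24C and ramF2_409.24C, are among the 4. The main F2 results are given with and without the 4 rams.

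RNA was measured in the same 20 F2 rams after a lysis step against somatic cells, and the description of the DNA extraction does not mention such a step. Of 10 spermatid markers 8 were found in the table, and all of these had counts in every ram, with a summed level of 72.4 to 240 CPM in the 4 rams and 20.1 to 4569 in the others. Leukocyte markers (10 of 10 found) summed to 9723, 12707, 12796 and 13232 CPM in the 4 rams and to 167 to 20364 in the others, and 6 of 7 epithelium markers summed to 2989 to 7155 and 65.4 to 8109. The 4 rams lay inside the wide range of the rest, but all 4 were below the median of the other 16 rams for spermatid markers (360.4 CPM) and above it for leukocyte (9027 CPM) and epithelium markers (2465 CPM). The lowest spermatid sum and the highest leukocyte and epithelium sums were those of ramF2_468.10C, whose dense mean was 50.4%. In ramF2_350.6C, at 65.4 CPM for spermatid and 18481 CPM for leukocyte markers, the dense mean was 50.6%. The leukocyte sum was above the spermatid sum in 18 of 20 rams, among them the 4, so this order was not particular to them. The part of other cells in the methylation levels was not tested.

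Dense cytosines were less methylated than the other autosomal cytosines in every sample of every generation. In F0 the mean level over dense cytosines was lowest in ram_12C at 53.3%, had a median of 55.9% over rams and was highest in ram_23T at 60.5%. The other cytosines lay between 73.8% and 77.0%, so the ranges did not overlap. The means were 56.3% ± 2.14 and 75.8% ± 1.12 (SD, n = 10), a difference of -19.5 points that was negative in 10 of 10 rams (two-sided exact sign-flip permutation test, p = 0.00195, the smallest 10 rams can give). In F1 the means were 57.4% ± 1.62 and 75.4% ± 1.23 (SD, n = 10), a difference of -18.02 points, negative in 10 of 10 pools (exact permutation p = 0.00195). In F2 they were 54.2% ± 6.32 and 77.5% ± 1.69 (SD, n = 20), a difference of -23.3 points, negative in 20 of 20 rams, and -26.8 points without the 4 rams. Since the 2 rams of a sire are related, the F2 difference was tested over the means of the 10 sires (exact sign-flip permutation p = 0.00195, the smallest 10 sires can give). The F0 rams were twins, so the 10 rams, 10 pools and 10 sire lines come from 5 families. These tests and the like ones below take all 10 as independent. An exact sign-flip permutation test over 5 pairs can give no p below 0.0625.

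The size of this difference depended on which clusters carried the weight. Without the 5 largest runs it was -14.6, -13.3 and -12.1 points in F0, F1 and F2. With each run of at least 5 listed cytosines counted once it was -6.77, -5.79 and -6.83 points. It also moved with the rule: with at least 5 neighbours it was -3.05, -2.57 and -5.55 points, with at least 20 neighbours -36.4, -34.4 and -34.9, and with 10 neighbours within 250 bp -29.4, -27.8 and -29.6.

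Averaged over cytosines, the level fell with crowding, but only beyond the border of the rule. In F0 the mean level was 75.8% with no listed neighbour, 76.0% with 1 to 4 and 74.8% with 5 to 9, so sparse cytosines hardly differed among themselves. It was 65.1% with 10 to 19 neighbours, 39.04% with 20 to 39 and 39.6% with 40 or more. The 1313 cytosines with exactly 9 neighbours averaged 72.95% and the 746 with exactly 10 averaged 74.5%, so the border of the rule itself marked no step. Dense sites at 20 to 39 neighbours were often unmethylated, with 36.9% of them under 20%. At 40 or more neighbours 81.3% lay between 20% and 80%, and the rams spread from 31.3% to 57.0%. Cytosines of a run are not independent, and these classes without the largest runs were not computed. Runs chr1:3016821-3019160, chr15:27742-29074 and chr15:29721-33014 held 274, 115 and 199 dense cytosines within 2340, 1333 and 3294 bp, at 35.9%, 35.8% and 37.4%. Other crowded runs were high. Run chr2:1837127-1838004 held 54 within 878 bp at 95.9%, and chr1:90607704-90608391 held 33 within 688 bp at 96.4%.

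**Figure D1:**
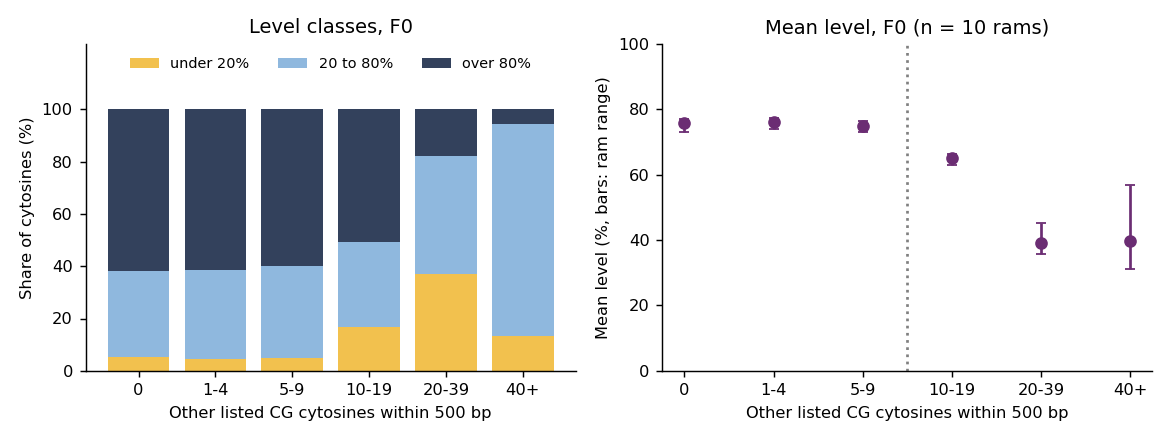
Share of CG cytosines in 3 level classes (left, percent) and mean methylation level (right, percent, bars from the lowest to the highest of 10 rams) in F0, by the number of other listed CG cytosines within 500 bp. Right of the dotted line are the dense cytosines, whose mean falls from 65.1% at 10 to 19 neighbours to 39.6% at 40 or more. Means are over cytosines, and cytosines of a run are not independent.

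Dense cytosines filled both ends and the middle of the scale. By their mean over the F0 rams 765 (19.8%) were under 20%, 1645 (42.6%) between 20% and 80%, and 1451 (37.6%) over 80%. Of the other cytosines 4.71%, 33.9% and 61.4% fell in these classes. The bin from 0% to 10% held 13.99% of dense and 2.003% of other cytosines, and the bin from 90% to 100% held 29.6% and 48.0%. Counted within each ram, the share under 20% was 22.1% ± 4.09 (SD, n = 10) for dense and 6.80% ± 0.690 for other cytosines, higher in 10 of 10 rams (exact sign-flip permutation p = 0.00195). The middle class was also larger among dense cytosines, by 8.92 points in 10 of 10 rams (exact permutation p = 0.00195). The 5 largest runs held 23.2% of the dense cytosines of F0, and most of these runs were of middle level. Of the dense cytosines outside them 20.9% had an F0 mean under 20%. The middle share outside them was not computed, so whether the middle class was larger there was not tested. In F2 the classes held 14.2%, 54.9% and 30.9% of dense cytosines, and 21.6% were low once the 4 rams were left out.

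**Figure D2:**
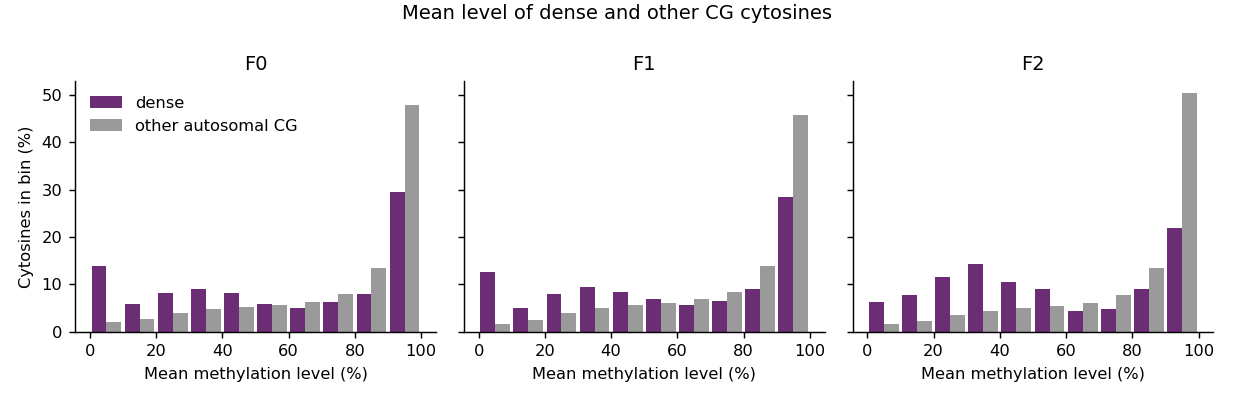
Distribution of the mean methylation level over the samples of a generation (percent, bins of 10 points) for dense and other autosomal CG cytosines, each as a percent of its own set. In F0 the lowest bin holds 13.99% of the dense and 2.003% of the other cytosines.

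Middle levels of dense cytosines were more often middle levels in every ram than those of other cytosines. Of the 1645 dense cytosines at a mean of 20% to 80% in F0, 707 (43.0%) were at 20% to 80% in all 10 rams, and 68 (4.13%) had a ram under 20% together with a ram over 80%. For the other cytosines these shares were 26.6% and 15.9%. In F2, with 20 rams, they were 26.05% and 9.80% for dense and 9.66% and 34.8% for other cytosines. Dense cytosines were also covered more deeply, and the part of coverage in these shares was not tested. Part of the middle levels lay in few loci. The runs chr1:3016821-3019160, chr1:128500889-128510840, chr15:29721-33014 and chr15:27742-29074 averaged 32.5% to 37.4% in F0. They held 274, 231, 199 and 115 dense cytosines, and the shares without them were not computed. In F0 the median SD within a diet group at middle levels was 11.5 points for dense cytosines, where counting of reads alone gives 8.34, and 13.7 points for the others, where it gives 9.89. In F2 the values were 14.99 and 6.18 points for dense and 16.9 and 9.65 for other cytosines.

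The state of a cytosine was largely the state of its run. Of the 298 runs, 35 had a mean level under 20% (576 dense cytosines), 121 between 20% and 80% (1912) and 142 over 80% (1373). Over the 219 runs with at least 5 dense cytosines the median SD of levels within a run was 9.22 points, while the SD between runs was 31.8 points. Low runs had a median within-run SD of 3.71 points, high runs 3.91 and middle runs 14.3, so the middle runs were also the least even. In 13 runs both low and high dense cytosines occurred. Median coverage was 26.2 reads in low, 31.8 in middle and 27.7 in high runs, and median spans were 607, 737 and 666 bp.

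A low run, a high run and an adjacent pair were picked after their values were seen. Run chr6:79058833-79059551 held 48 dense cytosines at a mean of 1.24% in F0, and the 13 still listed in F2 averaged 1.38%. Another low run, chr2:243227280-243227888 with 32 dense cytosines, was at 7.84% in F0 and 10.7% in F1, while the 4 still listed in F2 averaged 25.7%, above the bound of the low class. Over these 4 cytosines the 4 rams that stood apart were at 40.1% to 60.8% and ramF2_426.11T at 56.7%, with the other F2 rams at 12.5% to 25.8%. Run chr2:1837127-1838004 held 54 at 95.9% in F0. On chr7 runs of different level lay side by side. Run chr7:88344469-88344691 (27 dense cytosines), of the middle class, averaged 24.3% in F0 with rams from 11.1% to 71.1%, and the next run, chr7:88346623-88346980 (19 dense cytosines), averaged 94.9%.

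Of the 5 largest runs, 4 were in the middle class and 1 was high. In F0 the mean levels were 35.9% in chr1:3016821-3019160, 32.5% in chr1:128500889-128510840, 37.4% in chr15:29721-33014, 35.8% in chr15:27742-29074 and 91.4% in chr19:52045747-52050602. In chr1:3016821-3019160 the methionine rams of F0 were at 37.4%, 37.6%, 26.2%, 32.4% and 56.0% and the controls at 34.9%, 34.2%, 27.6%, 28.4% and 44.6%. The 56.0% belonged to ram_23T and the 44.6% to ram_24C, the only F0 rams above 40%. In F2 that run was at 68.6%, 59.4%, 66.2% and 69.8% in the 4 rams that stood apart, at 43.9% and 42.5% in ramF2_426.11T and ramF2_449.4C, and between 27.4% and 35.0% in the rest. Run chr15:29721-33014 gave 70.8%, 59.99%, 68.9% and 73.7% in the same 4 rams and 25.2% to 42.5% in the others, so in both runs the 4 rams lay above all others.

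The same 4 rams were higher where runs were low and lower where runs were high. Their low runs averaged 17.6%, 15.6%, 24.3% and 18.2%, against 3.41% to 8.66% in the other rams except ramF2_426.11T at 14.2%. Their high runs averaged 86.9%, 86.2%, 86.2% and 87.1%, against 90.9% to 94.5% in the others except ramF2_426.11T at 87.5%. In chr19:52045747-52050602 they were at 83.0%, 83.3%, 85.7% and 82.5%, with the remaining rams at 88.6% to 97.2%. In F0 ram_23T showed the same order, with 11.99% in low and 87.0% in high runs. Runs were classed by their F0 mean, but other cytosines singly by their mean over the F2 rams, the 4 included, so these classes are not alike in kind. Other cytosines of the low class averaged 13.4% to 16.7% in the 4 rams, 14.2% in ramF2_426.11T, 13.04% in ramF2_449.4C and 8.12% to 10.7% in the rest, so the lowest of the 4 lay below ramF2_426.11T alone. Other cytosines of the high class averaged 87.8%, 89.1%, 85.2% and 87.1% in the 4 rams and 90.6% to 95.97% in the remaining rams, with no overlap, so both shifts were also present outside the clusters.

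**Figure D3:**
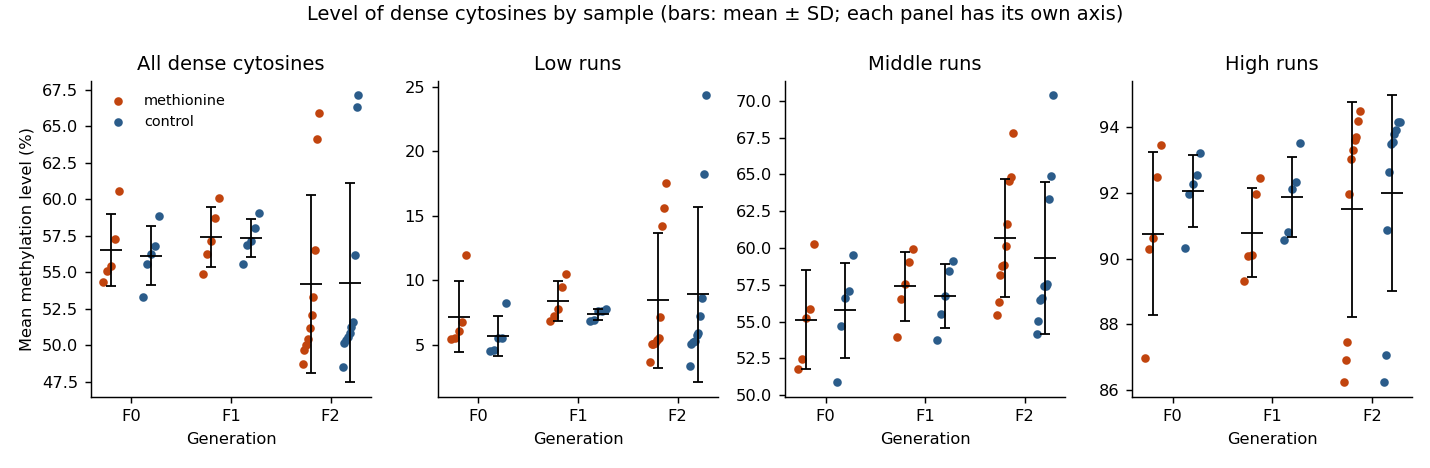
Mean methylation level (percent) of all dense cytosines and of low, middle and high runs in every sample of F0, F1 and F2, by diet group of the sample or its F0 sire, with the mean ± SD in black. In F2, 4 rams lie between 64.1% and 67.1% over all dense cytosines, 2 of each diet, above the others.

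Neighbouring dense cytosines agreed more closely than other neighbours did. For each listed cytosine and the next one at 2 to 100 bp, the mean absolute difference of level within a ram of F0 was 10.4 to 11.3 points for dense pairs (mean 10.7 ± 0.310, SD, n = 10) and 16.01 to 16.9 points for other pairs (16.4 ± 0.283). The difference of -5.78 points had the same sign in 10 of 10 rams (exact sign-flip permutation p = 0.00195). Over the mean levels of 3227 dense pairs, 70.003% lay within 10 points of each other and 13 pairs (0.403%) joined a low to a high cytosine. Of 85450 other pairs 62.0% lay within 10 points and 1897 (2.22%) joined low to high. Pearson's r between neighbours was 0.914 for dense and 0.596 for other pairs, a description only, since pairs this close often share reads and the dense levels spread more widely.

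The closer agreement held where levels leave most room for disagreement. Among pairs whose mean lay between 20% and 80%, dense neighbours differed by 17.2 points and others by 30.2 points in F0 (lower in 10 of 10 rams, exact permutation p = 0.00195). With both cytosines under 40 reads on average these values were 18.2 and 30.9 points, so the gap was about as large without the most covered sites. Agreement loosened with distance: dense pairs 2 to 10 bp apart differed by 8.27 points in their mean levels and those in the widest class, up to 500 bp apart, by 12.5 points, against 12.02 and 16.6 points for other pairs. In F1 and F2 dense neighbours differed by 10.7 and 12.1 points within a sample and others by 15.8 and 16.2, lower in 10 of 10 pools and 20 of 20 rams (exact permutation p = 0.00195 over pools and over the means of the 10 sires). In F2 the difference of -4.18 points was -3.75 without the 4 rams, -6.46 without the 5 largest runs and -2.04 among cytosines with at least 20 reads in every ram.

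**Figure D4:**
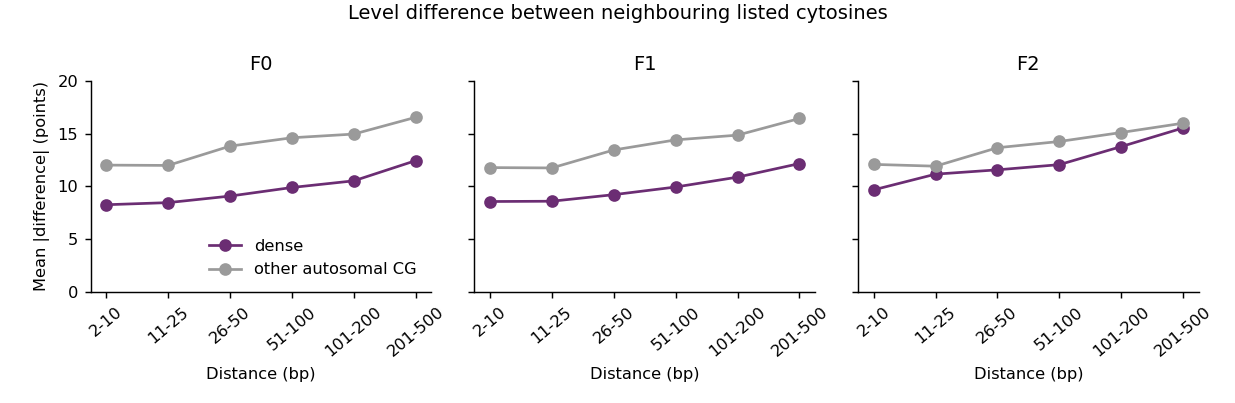
Mean absolute difference between the mean levels (points) of 2 neighbouring listed cytosines, by their distance (bp), for dense and other autosomal CG cytosines in F0, F1 and F2. In F0 dense pairs lie at 8.27 points for 2 to 10 bp and at 12.5 points in the widest class, below other pairs at 12.02 and 16.6 points.

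The strands of a CpG differed less in the clusters. A CpG is its own reverse complement, so each carries a cytosine on both strands, 1 bp apart. In F0 410 CpGs had both cytosines dense, covering 21.2% of the dense cytosines, and 78 had both among the others (0.0526%). The rule counts listed cytosines of both strands, so these shares follow partly from it. The mean levels of the 2 strands differed by 3.78 points in dense and 16.3 points in other pairs.

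Non-CG methylation was low near the clusters and elsewhere. The windows within 500 bp of a dense cytosine together covered 420948 bp. Cytosines in the CHH context (H is A, C or T) averaged 0.365% ± 0.0136 near dense cytosines and 0.386% ± 0.0113 elsewhere (SD, n = 10), lower near them in 10 of 10 rams (exact sign-flip permutation p = 0.00195). Their mean coverage was 57.3 reads near dense cytosines and 27.2 elsewhere. No control of bisulfite conversion was analysed, so the part of incomplete conversion and of coverage in these low CHH and CHG levels was not tested. The CHG levels of F0 were 0.407% and 0.402% and did not pass the test (exact permutation p = 0.375). In F1 CHG was higher near dense cytosines in 10 of 10 pools (0.411% against 0.395%, exact permutation p = 0.00195), and in F2 in 13 of 20 rams (0.555% against 0.538%, permutation p = 0.0188), which did not pass over the means of the 10 sires (exact permutation p = 0.0527). Near low, middle and high runs CHH was 0.250%, 0.372% and 0.379% in F0 and 0.433%, 0.439% and 0.512% in F2. In F1 and F2 CHH was 0.35003% and 0.458% near dense cytosines and 0.380% and 0.519% elsewhere, lower in 10 of 10 pools and 20 of 20 rams (exact permutation p = 0.00195 over pools and over the means of the 10 sires).

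The clusters kept their levels across generations. The mean level of the 3418 dense cytosines listed in F0 and F1 correlated with r = 0.994 over cytosines, and that of the 1692 listed in F0 and F2 with r = 0.992 (0.983 and 0.969 for other cytosines), given as a description because cytosines of a run are not independent. The level class was the same in F0 and F1 for 95.4% of dense and 94.3% of other cytosines, and in F0 and F2 for 90.8% and 92.3%. None of the dense cytosines listed in both went from low to high or back, in F1 or in F2.

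No difference between the diet groups in the mean level of the clusters passed a test. In F0 the methionine rams were at 57.2%, 55.1%, 55.4%, 54.3% and 60.5% and the controls at 56.2%, 56.8%, 55.5%, 53.3% and 58.8%, so the ranges overlapped almost entirely. The means were 56.5% ± 2.48 and 56.1% ± 2.01 (SD, n = 5 each), a difference of 0.403 points (two-sided exact permutation p = 0.786). Without ram_23T it was -0.596, with ram_24C, next to it in number and the highest control, kept in. The difference without both rams was not computed. In F1 the difference was 0.0741 points (exact permutation p = 0.944) and in F2 -0.106 points (permutation p = 0.964, and an exact p of 0.984 over sire means), or 0.2996 without the 4 rams (p = 0.797). Tested separately, low, middle and high runs and the dense level relative to the others gave adjusted p of 0.839 or higher in every generation (Benjamini-Hochberg over 18 values, permutation tests). These tests ignore that F0 rams with consecutive sire numbers deviated together. Within the 5 pairs of F0 the dense level relative to the others was higher in the methionine ram in 5 of 5, by 1.66 points on average (0.220 to 4.91, the largest in the pair of ram_23T), and the level of the other cytosines was lower in 5 of 5, by -1.26 points on average (exact sign-flip permutation p = 0.0625 for both, the smallest 5 pairs can give). The dense mean itself was higher in 3 of 5 pairs (exact permutation p = 0.562), and in F1 the dense level relative to the others was higher in 3 of 5 (exact permutation p = 0.438). For the dense mean the difference between the diet effects of F0 and F2 was 0.509 points (permutation p = 0.873).

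Single runs moved little with diet. In F0 the methionine minus control difference ranged from -9.86 to 10.9 points over the 298 runs, with a median of -0.679 (117 higher, 181 lower), and 90.9% of runs differed by under 5 points. Over the 11803 runs without a dense cytosine the median was -1.08, and 84.7% differed by under 5 points. In limma, fitted over all 12101 autosomal runs with at least 5 listed cytosines, 0 runs passed an adjusted p of 0.05 (percent called over all runs 0) and 2 dense runs had an unadjusted p under 0.05 (0.671%, against 3.14 percent of all runs). With consecutive sire numbers as a block, 0 passed and 15 dense runs had an unadjusted p under 0.05 (5.03%, against 6.83 percent of all runs). In F1 limma called 0 of 291 dense runs and 10 had an unadjusted p under 0.05 (3.44%, background 4.55 percent). In F2 it called 0 of 92, and 1 was under 0.05 (1.09%, background 4.04 percent). Without the 4 rams it called 0 of 92, and 3 were under 0.05 (3.26%, background 4.49 percent).

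The 4 largest positive F0 differences among runs with at least 10 dense cytosines had ram_23T as their highest ram. The run chr7:88344469-88344691 was at 34.7%, 11.1%, 14.9%, 16.99% and 71.1% in the methionine rams and at 14.5%, 14.6%, 12.1%, 12.3% and 40.9% in the controls. The 71.1% belonged to ram_23T, and the difference of 10.9 ± 10.8 points (SE, limma) had an adjusted p of 0.999. In F1 the same run differed by 2.51 points, and pool_23T was at 28.3%. The run chr9:60783927-60784278 was at 23.5%, 18.1%, 27.9%, 27.4% and 53.5% against 14.2%, 25.3%, 18.1%, 10.3% and 29.0%, again highest in ram_23T, a difference of 10.7 ± 6.20 points (SE, limma adjusted p = 0.999) that was 3.30 points in F1. In chr3:141977057-141977484 ram_23T was at 66.0%, the other methionine rams at 32.4% to 39.98% and the controls at 16.8% to 43.1% (9.004 ± 6.97 points, SE, limma adjusted p = 0.999), and the difference was 1.25 points in F1 and -5.70 in F2. Of the 27, 11 and 13 cytosines of these 3 runs 21, 8 and 7 were listed in F1, and 6 of the chr3 run in F2. Without ram_23T the F0 differences of these 3 runs were 0.567, 4.86 and 3.13 points, in the order given. In these runs ram_24C, next to it in number, was at 40.9%, 29.0% and 43.1% and stayed among the controls. The differences without both rams were not computed. The run chr26:11527509-11528007 reached 79.9% to 86.1% in methionine rams and 68.1% to 83.7% in controls (6.97 ± 3.37 points, SE, limma adjusted p = 0.999). Without ram_23T, with ram_24C kept in, it differed by 6.30 points, and 1.28 points separated the F1 pools.

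The 4 largest negative differences among these runs lay between -8.01 and -7.37 points. The run chr25:2629531-2629980 was at 84.1%, 75.6%, 53.3%, 87.4% and 57.6% in methionine and at 94.7%, 91.6%, 66.1%, 69.8% and 75.9% in control rams, a difference of -8.01 ± 7.87 points (SE). The run chr11:25539051-25539613 differed by -7.66 ± 4.51 points in F0 and -5.91 ± 4.67 in F1, then by 3.85 ± 8.17 in F2 (SE). Of its 13 cytosines 12 were listed in F1 and 7 in F2, so the sets compared differ. In this run of the middle class the F2 rams ramF2_400.24C and ramF2_409.24C were at 22.4% and 39.9% and ramF2_480.3T and ramF2_320.5T at 50.7% and 49.8%, with the other F2 rams at 69.6% to 92.6%. The runs chr10:29949474-29949945 and chr17:25038414-25038865 differed by -7.66 ± 4.37 and -7.37 ± 5.37 points (SE) in F0 and by -4.46 and 1.90 points in F1. Without ram_23T, with ram_24C kept in, the 4 differences were -4.52, -4.19, -7.71 and -9.86 points, in the order given. None of the 8 runs passed limma in any generation in which it was tested.

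Single dense cytosines called between diets were rare. A differentially methylated cytosine (DMC) differed by at least 20 points with an adjusted p of at most 0.01 in a likelihood-ratio test on the reads summed over each group, adjusted over all listed CG. In F0 10 of 3861 dense cytosines were called (0.259%), against 1.82 percent of all listed CG. Of these 4 were higher in methionine (background 0.770 percent) and 6 lower (background 1.05 percent). In F1 10 of 3418 were called (0.293%, background 1.00 percent), 7 higher and 3 lower (background 0.458 and 0.542 percent). In F2 11 of 1692 were called (0.65012%, background 2.19 percent), 5 higher and 6 lower (background 1.10 and 1.09 percent). Without the 4 rams the F2 count was 10 (background 3.04 percent), of which 9 were called with them.

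The share of calls depended on the size that a difference had to reach. By the adjusted p alone 80 dense cytosines passed in F0 (2.07%), 40 in F1 (1.17%) and 180 in F2 (10.6%), against 2.91, 1.50 and 6.63 percent of all listed CG, so in F2 the dense share lay above the background. They lay in 35, 24 and 39 runs, and cytosines of a run are not independent. In F0 64 were higher in methionine and 16 lower, against 1.24 and 1.68 percent of all listed CG. In F1 31 were higher and 9 lower (background 0.666 and 0.838 percent), and in F2 65 and 115 (background 3.28 and 3.35 percent). Dense cytosines were covered more deeply, with the medians given above, and the part of coverage in these shares was not tested. With the bound of 20 points and among cytosines at a mean of 20% to 80%, where a difference of 20 points is easiest to reach, 0.608% of dense and 4.59% of other cytosines were called in F0. In F2 these shares were 0.861% and 7.40%. The 5 largest runs, with 23.2% of the dense cytosines in F0 and 49.2% in F2, held no F2 call. In F0 they held only the call at chr19:52050268. The shares without these runs were not computed. The test takes every read as independent and ignores the spread between rams. With limma on the level of each sample, which uses that spread, 0 cytosines were called in each generation (percent called 0), dense or other. An unadjusted limma p under 0.05 was found for 2.41%, 3.36% and 1.24% of dense cytosines in F0, F1 and F2, against 4.11, 4.82 and 2.96 percent of all listed CG.

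Beside called dense cytosines the mean of the rest of the run differed by less than 10 points in every generation, as it did in nearly all dense runs, of which 0.671% in F0, 0.344% in F1 and 0% in F2 differed by 10 points or more. It differed between diets by 0.264 to 8.54 points beside the 10 DMCs of F0, in the direction of the DMC in 8 of 10. In F1 the range was 0.395 to 5.07 points, in the same direction in 6 of 10. In F2 it was 0.0674 to 5.73 points for the 10 DMCs whose run had other listed cytosines, in the same direction in 1 of 10. The rest of a run included any other DMC in it. This applies to chr8:85233871 and chr8:85233939 in F0, chr6:100244381 and chr6:100244403 in F1, and chr10:51288109 and chr10:51288144 in F2. The largest F0 value lay beside chr8:85233871, and both chr6 cytosines are among the 6 of F1. Values without the partner DMC were not computed. The DMCs were chosen for differing by at least 20 points, so the larger size of their own difference follows from that choice.

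Many of their levels sat near 0%, 50% or 100% in individual rams. In F0 65 of 100 ram values of called dense cytosines were within 10 points of 0, 50 or 100 (65.0%), and in F2 173 of 220 (78.6%). For dense cytosines at a mean of 20% to 80% that were not called the shares were 35.5% and 31.6%. In F2 3 of the 11 called cytosines had means over 80%, and the 8 at 20% to 80% gave 119 of 160 values (74.4%), while in F0 all 10 were at 20% to 80%. Called cytosines were chosen for a difference of at least 20 points and so vary more between samples, with a median range of 92.1 points in F0 and 100 in F2 against 35.7 and 50.9 for the uncalled, so these shares differ in part by that choice and are a description. In the F1 pools, which average several rams, the 8 called cytosines at these means gave 37.5% and the uncalled 35.4%. Bisulfite sequencing reads an unmethylated cytosine and a thymine in the DNA alike, and no genotypes were analysed, so the part of sequence differences between rams was not tested.

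The cytosine at chr6:105742684 was called in F1 and in F2, higher in the methionine line both times. The annotation of the study places it in a Bov-tA3 SINE, a short interspersed repeat, in intergenic DNA. The F1 methionine pools were at 96.9%, 100%, 98.0%, 94.6% and 97.6%, and the control pools at 35.6%, 49.0%, 80.5%, 93.9% and 88.6%, so the groups did not overlap. In F2 all methionine rams were at 91.3% or higher, while control rams were at 0.0%, 42.9%, 45.0%, 50%, 55.0%, 70% or at 96.0% and above. The control rams with low values had sires 4, 10 and 24. In F1 the lowest control pools were pool_4C at 35.6% and pool_6C at 49.0%, while ramF2_350.6C and ramF2_485.6C, of sire 6, were at 100% in F2. The other 9 listed cytosines of the run averaged 95.6% and 96.0% in the F2 diet groups. In limma the difference had an adjusted p of 0.975 in F1 and 1.00 in F2.

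Both cytosines called in F0 and F1 were lower in the methionine line. At chr19:52050268, in the fifth largest run, the F0 methionine rams were at 48.9%, 91.8%, 43.8%, 96.4% and 39.4% and the controls at 51.9%, 100%, 95.4%, 97.5% and 92.2%. Of these values 3 lay within 10 points of 50% and 6 within 10 points of 100%, with ram_23T at 39.4%, while the mean of the other 81 cytosines of the run was 81.8% to 95.8% in the same rams. The F1 methionine pools spread from 17.9% to 97.1% and the control pools from 53.9% to 92.4%. At chr23:16913605 the methionine rams were at 81.0%, 81.3%, 31.8%, 48.1% and 44.8% and the controls at 76.0%, 97.1%, 53.3%, 89.5% and 88.2%, with F1 means of 62.6% ± 11.8 and 84.1% ± 9.82 (SD, n = 5 each). Of 9 dense DMCs of F0 that were listed in F1, these 2 were called there, and of 4446 other autosomal DMCs of F0 listed in F1, 852 were (19.2%).

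One cytosine, chr8:85233939, was called in F0 and F2, lower in the methionine line in both. In F0 the methionine rams were at 48.4%, 0%, 50.98%, 52.8% and 33.3% and the controls at 94.4%, 44.8%, 98.3%, 50% and 42.6%. In F2 both groups ran from 0.0% to over 95%, with means of 53.2% ± 35.4 and 67.5% ± 32.1 (SD, n = 10 each). The cytosine 68 bp away at chr8:85233871 was called in F0 only. Cytosine chr8:85233939 was the 1 call in F2 among 5 dense DMCs of F0 listed there, and chr6:105742684 was the 1 call among 4 dense DMCs of F1 listed in F2. For other autosomal DMCs these shares were 320 of 1529 (20.9%) and 215 of 813 (26.4%). In any generation 27 different dense cytosines were called. Of the 1598 listed in F0, F1 and F2, 0 were called in all 3, against 83 of 64114 other autosomal cytosines (0.129%).

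The annotation of the study, held here in part, has an entry for 11 of the 27 called cytosines, some within genes. It places chr6:100244381 and chr6:100244403, called in F1, in a BovB long interspersed repeat within an intron of THAP6, which encodes a THAP domain protein. Their F1 values were 59.7% ± 35.7 against 28.6% ± 24.6 and 59.9% ± 28.8 against 27.8% ± 21.3 (SD, n = 5 each), with pool_10C at 0.0% in both and pool_5T at 0.0% and 12.5%. It places chr9:98082035 in an intron of CNGB3, a subunit of the cone photoreceptor channel, where the methionine pools were at 56.7% to 92.6% and the control pools at 29.3% to 60.4%. Cytosine chr10:94084363 lay in a simple repeat in an intron of MYO16, an unconventional myosin, at 68.2% or higher in the methionine pools and 47.6% ± 30.6 (SD, n = 5) in the control pools. Cytosines chr2:238062347 and chr4:75917601 lay in L1_BT elements between genes.

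**Figure D5:**
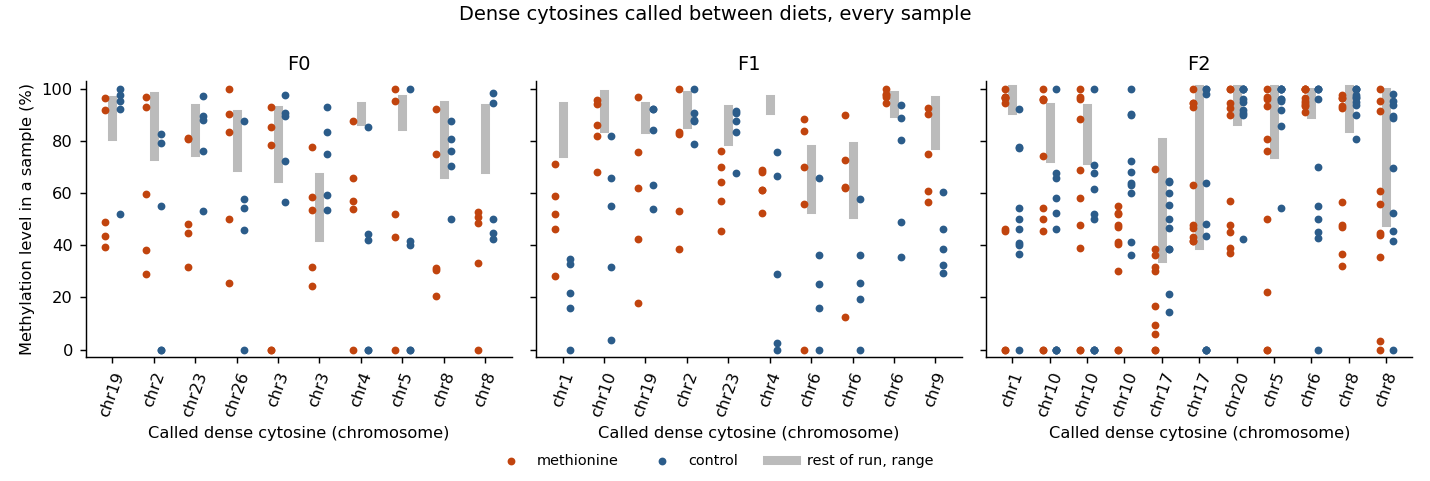
Methylation level (percent) in every sample of the dense cytosines called between diets in F0, F1 and F2, with the range over samples of the mean level of the other listed cytosines of the run as a grey bar (none where the run had no other). The grey bar is a mean over many cytosines and each point 1 cytosine, so their spreads are not alike in kind, and 65 of the 100 ram values in F0 lie within 10 points of 0%, 50% or 100%.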

How the data were processed

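Per the labels, DNA from semen was bisulfite converted and sequenced (whole-genome bisulfite sequencing), and the submitters' processing notes name bcl2fastq, Trim Galore, Bowtie2 and Bismark. The authors deposited, for each listed cytosine and sample, read counts: coverage and methylated reads. The 120 columns of unmethylated reads were not used. No listed cytosine fell below 10 reads in any sample of its generation. Samples held 6990542 to 11196931 CG reads in F0, 5813017 to 10562538 in F1 and 3735916 to 5585871 in F2. A level is methylated over all reads of a cytosine. Precision is limited by coverage, and counting errors are given beside the spread between samples. RNA counts of the F2 rams, scaled to CPM by the total over genes, served for marker lists only.

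Neighbours were counted among listed CG of F0, and the dense positions were followed in F1 and F2. The other cytosines of F1 and F2 were all remaining autosomal ones listed there, 278349 and 99472. Of these 218616 and 72175 were also listed in F0, and neighbours were not counted for the rest. Runs chain listed cytosines at gaps of at most 500 bp. Diet groups and dense against other cytosines were compared over samples by permutation tests, exact for F0, F1 and the means of the 10 sires of F2, and with 100000 resamples for the rams of F2. Cytosines were tested with the thresholds of the study (20 points, adjusted p at most 0.01). The study names methylKit but no test, and the likelihood-ratio test on summed reads was chosen here. Levels of cytosines and runs were also tested by limma 3.58.1 in R 4.3.3, with scipy 1.17.1 for the rest. The runs named are the 5 with the most dense cytosines and, among runs with at least 10, the 4 with the largest F0 difference in each direction. Coordinates are those of Oar_rambouillet_v1.0. The cluster rule, gene lists and tests were chosen with earlier results of these data known. Alternatives were other neighbour, coverage and difference thresholds, summed reads, limma, single samples left out and a block of consecutive sire numbers. The labels do not name the twins. The deviations of F0 rams with consecutive numbers correlated with r = 0.154 to 0.526 over dense cytosines in 5 of 5 pairs, and 10 of 10 rams correlated best with their neighbour in number.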

Additional observations from a re-analysis of the deposited data

Results flagged for a closer look

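In the groups of 5 rams or pools, 5 of the values compared had 1 sample far from the other 4 of its group, measured by its gap to the nearest one against the whole range. In all 66 comparisons were made, among them those of the F2 groups of 10 rams, where no value was marked. Chance alone marks about 1 in 20 groups, and the comparisons share samples and are not independent. The mean level of low runs was 11.99% in ram_23T against 5.49% to 6.80% in the other F0 methionine rams, and 8.25% in ram_24C against 4.497% to 5.57% in the other F0 controls. In the chr19:52045747-52050602 run ram_24C was low at 88.5%, with the other controls at 93.2% to 94.5%. The mean difference between dense neighbours was 11.3 points in ram_6C against 10.4 to 10.6 points in the other F0 controls, and 11.3 points in pool_10C against 10.5 to 10.7 points in the other F1 controls. The 4 F2 rams that stood apart were not marked this way, since more than 1 ram of each group lay at the high end.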

How the results depend on the processing

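Under each alternative tried the mean level of dense cytosines stayed below that of the others and dense neighbours stayed closer, with sizes from -2.57 to -36.4 points for the level, given with the result. The alternatives without the 5 largest runs, with each run counted once, or without 4 or 6 F2 rams were chosen after seeing the data. So were the tests over the means of 10 sires, by the adjusted p alone, and within pairs for levels other than the dense mean. The neighbour comparison under 40 reads, the others restricted to cytosines listed in F0, and the runs and low share without ram_23T were also chosen then. The share of dense cytosines called low under a bound of 10% was 13.99% in F0, 12.6% in F1 and, in F2, 6.38% instead of 14.2%. Under the bound of 20% it was 25.4% and 22.8% in F0 and F1 with at least 20 neighbours. In F2 it was 23.5% under that bound without the 6 highest rams. On sire means CHG of F2 no longer passed. The diet difference of the dense mean passed no test in any alternative and changed sign in several. It was -0.365, -0.260 and 0.464 points in F0, F1 and F2 without the 5 largest runs, -0.0603 in F1 without cytosines over 100 reads, and 0.2996 and 0.294 in F2 without 4 and 6 rams. Leaving out 1 sample gave -0.596 to 1.08 points in F0, negative without ram_23T or ram_12C (-0.311), and -0.590 to 0.713 in F1, negative without pool_3T (-0.250), pool_23T, pool_6C (-0.0372) or pool_12C (-0.369). The sample next to it in number stayed in. The DMC counts of 10, 10 and 11 became 0 in each generation in limma, with or without the replicate block, and 0 in F2 in limma on the reads of each sire summed. They were 4 in F0 and 5 in F2 at 25 points (0.104% and 0.296%, against 1.15 and 1.13 percent of all listed CG), and 6 of 1814, 6 of 1759 and 0 of 884 with at least 20 reads (0.331%, 0.341% and 0%, against 1.99, 1.20 and 0.387 percent). Of the other autosomal cytosines with at least 20 reads in F2, 52 of 2681 were called (1.94%). Leaving out 1 sample gave 10 to 26 in F0 (22 without ram_3T, 21 without ram_5T, 24 without ram_11T, 18 without ram_10C, 19 without ram_4C, ram_6C or ram_12C, 26 without ram_24C) and 12 to 16 in F1 (16 without pool_23T or pool_24C). The share called also moved over all listed CG, to between 1.99 and 2.34 percent in F0 and between 0.949 and 1.32 percent in F1, with the dense share at 0.259% to 0.673% and 0.351% to 0.468%. The replicate block changed no other call, and in F1 2 of 5 pairs correlated over 0.1 at dense cytosines and 5 of 5 over all autosomal CG (0.105 to 0.129, with 10 of 10 pools correlating best with their pair). The causes were not tested.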
